A study of Drosophila melanogaster with 2 samples.

Results

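The distal intronic binding sites of ZIPIC in Drosophila melanogaster embryos are described here: peaks whose summit lay more than 500 bp from every annotated transcript start, inside a gene body and in no exon. Of 2971 optimal peaks, 664 (22.3%) met this rule, which used only position and gene models. Intervals of shares below are exact 95% intervals. All values come from chromatin immunoprecipitation with an anti-GFP antibody from whole embryos, aged 0 to 24 h, males and females pooled, of 1 transgenic line (CG7928-GFP) that stably expresses ZIPIC (CG7928) with GFP fused to its C terminus. The 2 biological replicates, numbered 2 and 3, form 1 group, so conditions were not compared, and an average over a whole embryo does not show in which cells a site was bound. The labels name the fusion protein only and do not say whether the native ZIPIC gene was still present.

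ZIPIC is a zinc-finger protein that binds DNA and recruits CP190, a cofactor shared by several insulator proteins. Insulator proteins are known for sites at promoters and at the borders of chromatin domains. Introns, and first introns in particular, also hold many enhancers and alternative start regions of fly developmental genes, so an intronic peak may lie at several kinds of element that a peak list does not tell apart.

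The remaining optimal peaks were 2032 at promoters (summit within 500 bp of a start), 226 distal intergenic and 49 distal exonic. The optimal list is the top of a pooled list of 30000 candidate entries ranked by the authors' signal value, a score whose scale is not stated. The 27029 entries below it served as weaker candidates, and 9.90% of all pooled entries were optimal. The pooled list was deposited as peaks and background, so the weaker candidates may hold background as well as weak sites. Peaks share the same libraries, so intervals and p-values below cover counting error over peaks only, and the read depth behind them is unknown. Of the 664 members, 648 remain when entries that overlap each other are counted once.

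The sequences of some strong members give examples of what lies under these summits, and not every strong member is shown. The first set holds CAGGGCTG, an 8-base string known from the ZIPIC peaks of this series, and is shown in the strand on which the string reads this way. Each window has 60 bases on Release 6 of the genome (dm6), with the string in capitals. The member in ry, with a pooled signal of 491, was not among the 2971 strongest entries of both replicates.
zf30C intron (chr2L:9758995-9759054, plus strand): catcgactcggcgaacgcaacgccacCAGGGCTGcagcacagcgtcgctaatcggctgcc
Ncoa6 intron (chr2L:5325037-5325096, minus strand): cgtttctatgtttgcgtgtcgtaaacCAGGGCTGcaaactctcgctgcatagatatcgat
CG1677 intron (chrX:7300401-7300460, plus strand): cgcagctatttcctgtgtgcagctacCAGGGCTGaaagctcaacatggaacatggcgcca
Stt3A intron (chrX:21053309-21053368, plus strand): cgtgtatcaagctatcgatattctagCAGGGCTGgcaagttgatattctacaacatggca
ry intron (chr3R:13033346-13033405, plus strand): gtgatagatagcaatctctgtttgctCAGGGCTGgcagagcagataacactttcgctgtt

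The second set is the 100 bases around the summits of strong members without the string, on the plus strand of dm6. Here capitals mark runs of at least 6 bases made of A and T alone. Such runs filled much of the windows in CG11050 and Msp300, and only a short stretch of the woc window, which was rich in G and C.
CG11050 intron (chr2L:6612666-6612765): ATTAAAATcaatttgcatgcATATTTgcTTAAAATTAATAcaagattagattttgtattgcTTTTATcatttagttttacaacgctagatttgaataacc
Msp300 intron (chr2L:5145700-5145799): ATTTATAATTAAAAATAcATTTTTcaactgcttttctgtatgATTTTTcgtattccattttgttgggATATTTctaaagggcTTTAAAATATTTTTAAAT
ush intron (chr2L:480998-481097): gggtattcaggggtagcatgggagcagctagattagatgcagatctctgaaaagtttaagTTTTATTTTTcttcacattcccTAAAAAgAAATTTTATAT
woc intron (chr3R:27263491-27263590): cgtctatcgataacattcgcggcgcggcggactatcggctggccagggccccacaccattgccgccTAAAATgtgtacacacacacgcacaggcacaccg
Trl intron (chr3L:14759465-14759564): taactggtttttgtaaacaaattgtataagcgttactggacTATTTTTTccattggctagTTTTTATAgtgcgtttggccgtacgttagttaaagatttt

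The strongest member lay in the first intron of zf30C, which encodes a zinc-finger protein. Its signal was 2252 in the pooled list, 1120.1 in replicate 2 and 1103 in replicate 3, and it stood 101st among all optimal peaks. No distal intronic site was therefore among the 100 strongest ZIPIC peaks. The next members were in CG11050 (pooled 1937, replicate 2 1165, replicate 3 775) and in Spn (pooled 1789, replicate 2 1060.1, replicate 3 735). Spn encodes spinophilin, a scaffold of protein phosphatase 1. Ncoa6, a nuclear receptor coactivator gene, had a pooled signal of 1762, with 926 in replicate 2 and 831 in replicate 3.

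Of the other hosts of the 20 strongest members, Trl encodes GAGA factor, dom an ATPase that exchanges histone variants, and Dsp1 and HmgZ encode HMG-box proteins. The Trl member had signals of 691 in replicate 2 and 527 in replicate 3, and that of dom had 626 and 724. The ush member, in the gene for a cofactor of GATA factors, had 1009 in replicate 2 and 683 in replicate 3. The kay member, in the gene for the Fos homologue, had 663 in replicate 2 and 439 in replicate 3. In woc, a zinc-finger gene, the replicates were nearly equal (808 in replicate 2 and 804 in replicate 3). In tara, a gene of the trithorax group, replicate 3 was higher (960.4, against 554 in replicate 2).

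The other strongest members lay in Msp300, a nesprin gene that anchors nuclei, CG15531, CG1677, CG9663, CG32772, Stt3A, the catalytic subunit of oligosaccharyltransferase, and the kinase genes Tlk and Lk6. All 20 ranked within the first 2971 entries in replicate 2 and in replicate 3. Their pooled signals ran down to 951 in HmgZ. The median member signal was 179, far below these.

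**Figure D1:**
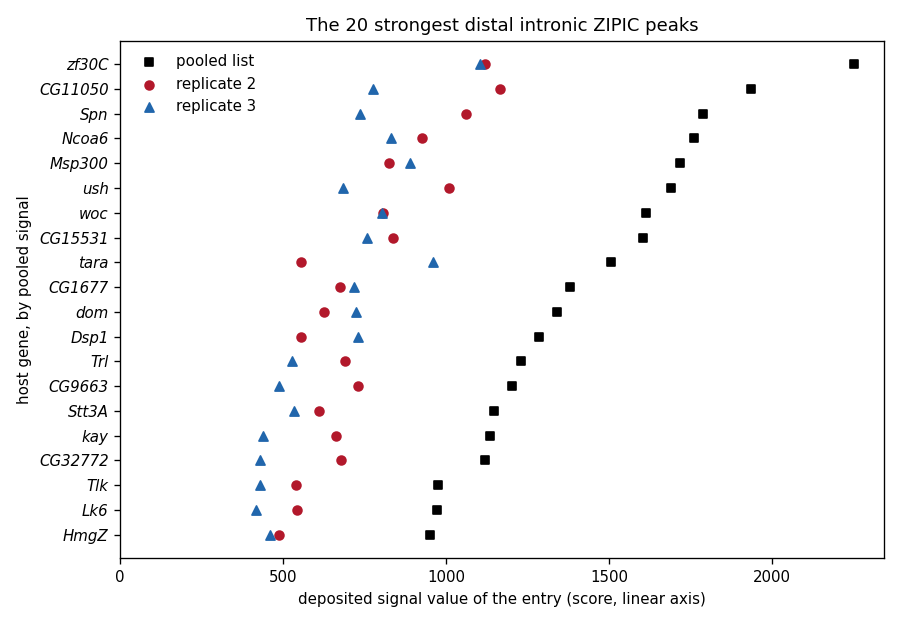
Signal value (a score without stated scale, linear axis) of the 20 strongest distal intronic peaks in the pooled list (squares), replicate 2 (circles) and replicate 3 (triangles), 1 row per host gene. The pooled value was above both replicate values in each row, and the replicates lay closest together in woc and zf30C and furthest apart in tara and CG11050.

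The first question was which introns the sites lie in. First introns held 447 of 664 members (67.3%, interval 63.6 to 70.9%), against 48.7% of the weaker distal intronic candidates (5774 of 11846). The odds ratio was 2.17 (95% interval 1.83 to 2.57, Fisher's exact test, two-sided, p = 6.38e-21). First introns made up 37.2% of all distal intronic bases. In the strongest 2971 entries of each replicate taken alone, the share was 66.0 ± 3.55%, against 47.7 ± 8.82% of that replicate's weaker distal intronic entries (SD, n = 2).

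Second introns held 161 members (24.2%, against 29.1% of weaker candidates), introns of order 3 held 30 (4.52% against 8.51%) and later introns 26 (3.92% against 13.6%). A member in a late intron was Msp300, in the 12th of 28 introns, 636 bp from the nearest start, a start of Msp300 itself. Of the 447 members in first introns, 41 lay in an intron whose transcript has no other. An intron was taken as first where it is the first of any transcript, so a first intron of a short transcript may lie deep in a gene.

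Splitting introns by length left the order in place. In introns under 2 kb, 74.7% of members lay in a first intron (68 of 91), against 41.2% of weaker candidates. The shares were 72.4% against 56.5% from 2 to 10 kb, 62.3% against 48.6% from 10 to 30 kb, and 53.5% against 38.1% at 30 kb or more. Of the bases in these length classes, 24.3%, 45.6%, 44.4% and 26.0% lay in first introns, from the shortest to the longest class. Members were above both the weaker candidates and the bases in all 4 classes.

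**Figure D2:**
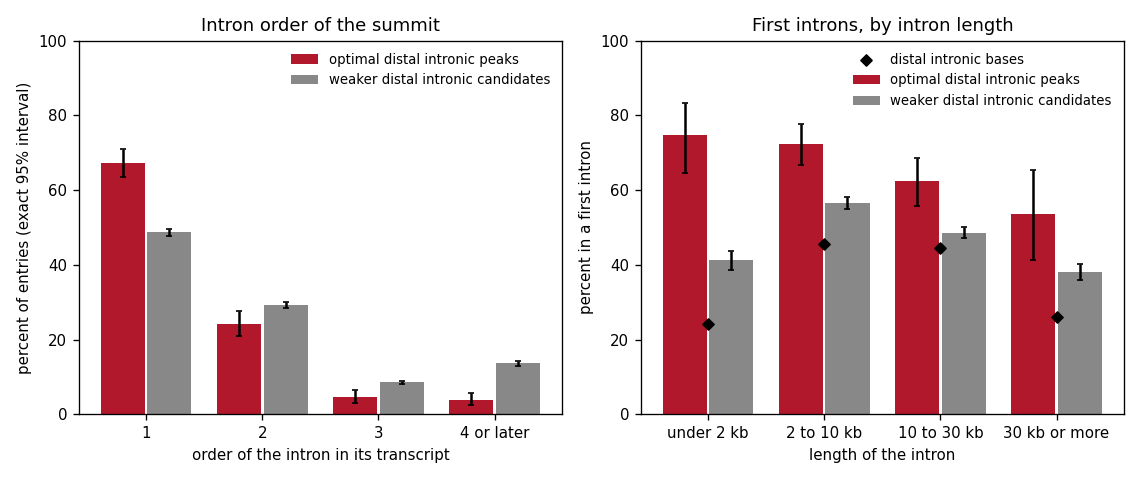
Left, percent of 664 optimal distal intronic peaks and of 11846 weaker distal intronic candidates by order of the intron in its transcript; right, percent that lie in a first intron, by intron length, with diamonds for the percent of distal intronic bases. Bars carry exact 95% intervals, and first introns hold 67.3% of the optimal peaks against 48.7% of the weaker candidates.

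The introns were long, but not longer than those of weaker candidates. Member introns had a median length of 8375 bp (127 to 108407 bp), against 10785 bp for weaker candidates. Introns of at least 10000 bp held 44.3% of members and 52.7% of weaker candidates, an odds ratio of 0.713 (Fisher's exact test, two-sided, p = 2.67e-05). These introns made up 57.9% of distal intronic bases. The call was lost with replicate 3's own list, that is without replicate 2 (odds ratio 0.877, Fisher's exact test, p = 0.150).

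Members lay nearer to starts than weaker candidates within the distal range. The nearest start was a median of 2005 bp away from members (501 to 47655 bp) and 3853 bp from weaker candidates. In all, 169 members lay at 500 to 1000 bp and 162 at 1000 to 2000 bp, while 43 lay at 10000 to 20000 bp and 15 further out. The nearest start belonged to the host gene for 499 of 664. The members closest to the 500 bp limit were in prage and CG4313 (both 501 bp) and CG5171 (502 bp), and the peaks that just missed it were in lola (492 bp), bun (485 bp) and hng3 (481 bp). Cut into 4 equal stretches from the 5′ end, introns held 199, 199, 160 and 106 members, so the stretch next to the 3′ end held the fewest (16.0%, against 20.4% of weaker candidates).

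The sites were spread over 484 host genes, 471 of them protein-coding. These were 5.07% of the 9549 genes that have distal intronic sequence, and 5.31% of all distal intronic entries of the pooled list were optimal. A single member lay in 368 hosts, 87 hosts held 2, and 29 held 3 or more. The 116 hosts with at least 2 members together held 296 members (44.6%). Neighbouring members of 1 host lay a median of 2862 bp apart, and in 77 of 180 cases under 2000 bp. The smallest gap was 199 bp, and in Ncoa6, Lrch and Tab2 it separates the only 2 members. Pairs this close may be 1 site listed as 2, so the counts of hosts with at least 2 members may be too high.

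The hosts with the most members were tara and CHES-1-like, with 8 each. CHES-1-like encodes a forkhead transcription factor. Its 8 members lay within 16118 bp, and 7 of them were found in both replicates. They were assigned to 3 overlapping first introns (18998, 14781 and 4789 bp, in a gene of 27048 bp). The strongest member had 274 in replicate 2 and 192 in replicate 3, the weakest 67.1 in replicate 2 and 62.7 in replicate 3. The 8 members of tara lay within 17499 bp in 2 overlapping first introns (30338 and 13448 bp), and 1 member held 1507 of their summed pooled signal of 2973. Of the 28 pooled entries in the distal introns of tara, 28.6% were optimal, and of the 17 in CHES-1-like, 47.1%, against 5.31% in all introns. Both genes were picked for their many members, so a high share is built into the choice and was not tested.

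The 300 bases around the strongest member of each of these 2 genes differ in composition, with the central 100 bases in capitals, on the plus strand of dm6. In CHES-1-like the central bases had a GC content of 20%, against 41.5% in the flanking bases shown. In tara it was 51%, against 46%.
CHES-1-like intron (chrX:7706810-7707109): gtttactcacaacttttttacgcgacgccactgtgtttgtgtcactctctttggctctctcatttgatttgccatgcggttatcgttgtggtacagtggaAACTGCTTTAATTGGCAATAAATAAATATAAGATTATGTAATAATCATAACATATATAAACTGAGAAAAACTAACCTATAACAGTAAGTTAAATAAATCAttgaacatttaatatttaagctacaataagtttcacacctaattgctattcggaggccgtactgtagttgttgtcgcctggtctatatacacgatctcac
tara intron (chr3R:16250534-16250833): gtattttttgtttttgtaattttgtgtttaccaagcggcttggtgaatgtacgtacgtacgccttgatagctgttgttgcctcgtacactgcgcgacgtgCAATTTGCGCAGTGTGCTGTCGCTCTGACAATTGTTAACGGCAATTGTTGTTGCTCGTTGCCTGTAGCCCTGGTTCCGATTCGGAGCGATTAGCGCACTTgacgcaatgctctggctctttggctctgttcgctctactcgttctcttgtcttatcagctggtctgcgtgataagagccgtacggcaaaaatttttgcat

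The scribbler gene sbb, which encodes a nuclear cofactor, held 7 members in 1 intron of 49364 bp. The strongest of these had 451 in replicate 2 and 462 in replicate 3, and the others lay between 131 and 199 in the pooled list. Tlk and shn held 6 each. Tlk encodes Tousled-like kinase and shn the zinc-finger protein Schnurri of the Dpp pathway. Both members of Tlk in its 2780 bp intron had no entry in replicate 2 at all, while replicate 3 listed them at 115 and 134.

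Raf, the kinase of the MAP kinase cascade, held 5 members within 6350 bp of its second intron. Hr4, a nuclear receptor gene of the ecdysone response, held 5 within 16186 bp. The 5 members of simj, a gene for a NuRD subunit, lay in 1 intron of 19639 bp. They include a pair 199 bp apart that matched the same entry of replicate 2 (159). A pair in tou, at the same spacing, likewise shared 1 entry of replicate 3 (157), so these pairs may each be 1 site listed as 2. Of the 5 members of tou, a gene for a chromatin protein, 1 was found in both replicates. CG1677 held 4, and its strongest, with 674 in replicate 2 and 717 in replicate 3, lay 7475 bp from the nearest start, that of brk, the gene for a repressor of Dpp targets.

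**Figure D3:**
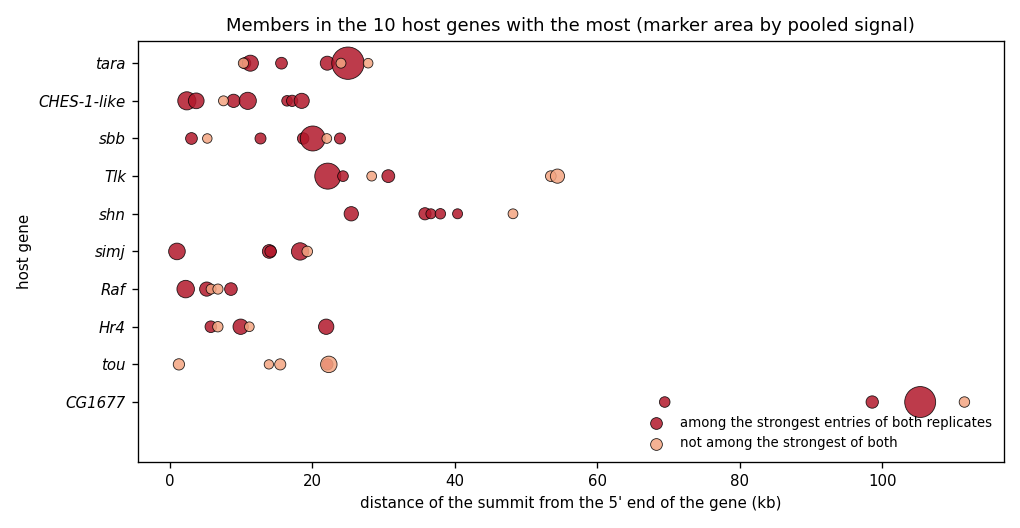
Position of each member in the 10 host genes with the most (CG1677 is tied with 6 others at 4 members and shown for its summed signal), as distance in kb from the 5′ end of the gene, with marker area proportional to pooled signal; dark markers ranked within the first 2971 entries in each replicate. In tara, sbb, Tlk and CG1677 a single member carries far more signal than the rest, while in Raf all 5 lie within the first 10 kb.

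Large genes had many candidates but few members. Genes with at least 50 kb of distal intronic sequence held a member in 26.3% of cases (59 of 224), against 0.951% of genes with under 2 kb, which have little room. Per entry the order was the other way: 3.03% of the entries in the roomiest genes were optimal, against 10.5% in those with under 2 kb. The 50 genes with the most distal intronic sequence on the arms held 18 members in 12 genes, 2.71% of members against 8.00% of weaker candidates, and 1.86% of their entries were optimal. Among these genes, which were named after their values were seen, pum, a translational repressor, dnc, a cAMP phosphodiesterase, hth, a homeobox gene, fru, sick and Dys, the dystrophin gene, held 2 members each. Myo81F, with the most distal intronic sequence of all, held none among 38 entries, too few to tell it apart from the 1.86% of these genes.

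Host genes were often bound at a promoter as well. Among genes with at least 10 kb of distal intronic sequence, 110 of 288 hosts (38.2%) had an optimal peak within 500 bp of a start, against 151 of 974 genes without a member (15.5%). The odds ratio was 3.36 (95% interval 2.48 to 4.56, Fisher's exact test, two-sided, p = 1.89e-15). In the replicates' own strongest entries the shares were 40.2 ± 12.6% and 14.8 ± 1.53% (SD, n = 2), and the odds ratio was 5.08 without replicate 2 and 2.85 without replicate 3. Promoter peaks were present in tara, CHES-1-like, sbb, Tlk, shn and CG1677, and absent from simj, Raf, Hr4 and tou.

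The share of hosts varied between lists of genes, which are counts over genes of unequal size and were not tested. The lists were chosen by symbol and are not complete, so their counts hold for the listed genes only. Over all genes with distal intronic sequence, 5.07% were hosts, and the median gene had 0.454 kb of such sequence. In the lists that median ran from 0.676 kb (Polycomb, trithorax and insulator genes) to 29.0 kb (cell adhesion and axon guidance genes). Shares of hosts in the lists therefore also reflect room, and the share of entries is given beside them. Of 74 developmental transcription factor genes with distal intronic sequence, 18 were hosts (24.3%), with 32 members, and 7.13% of their 449 entries were optimal, against 5.31% in all genes. Within this list kay and sbb had the strongest, followed by mam, the Notch coactivator mastermind (173 in replicate 2 and 229 in replicate 3), and jumu, a forkhead gene (161 and 147). The median signal of the 32 members was 171, against 179 for all members. CHES-1-like and the cofactor gene ush, whose strongest members had 475 and 1690 in the pooled list, were not in this list.

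Signalling genes had 13 hosts of 59, with 22 members and 6.61% of entries optimal. After Raf came aos, the secreted EGF receptor inhibitor argos (152 in replicate 2 and 135 in replicate 3), InR, the insulin receptor (142 and 116), and the receptor gene N (111 and 121). Nuclear receptor and ecdysone response genes had 5 hosts of 24 (20.8%), with 10 members and 5.21% of entries optimal. Besides Hr4 these were EcR, the ecdysone receptor (187 in replicate 2 and 138 in replicate 3), Eip75B (165 and 125), br, a zinc-finger gene induced by ecdysone (134 and 102), and 1 further gene.

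Polycomb, trithorax and insulator genes had 4 hosts of 37 (10.8%), with 8.51% of only 47 entries optimal. These were Trl, trx (314 in replicate 2 and 306 in replicate 3), ph-p (70.0 and 135) and psq (98.1 and 104), each with 1 member that was found in both replicates. For this list, 6 symbols matched no gene, and tara, a host of the trithorax group with 8 members, was not in it. The list of muscle structural genes had 2 hosts of 30 (6.67%, near the 5.07% of all genes, with 2.50% of entries optimal), namely Msp300 and Zasp52.

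Cell adhesion and axon guidance genes, which are large, had 10 hosts of 101 (9.90%, against 5.07% of all genes). They held 12 members, and 1.66% of 722 entries were optimal, against 5.31% in all genes. The strongest were in fra, the netrin receptor gene frazzled (146 in replicate 2 and 84.4 in replicate 3), side (152 and 71.3), kirre (114 and 63.5) and NetB (86.1 and 86.2). Ion channel and neurotransmitter receptor genes had 3 hosts of 66 (4.55%, near the share of all genes) and 1.15% of 262 entries optimal. These were KCNQ, a potassium channel gene (243 in replicate 2 and 198 in replicate 3), ClC-a (111 and 43.0) and Ca-beta (102 and 24.6).

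The sites were weaker than promoter peaks, and no difference in strength from other distal peaks was detected. The median pooled signal was 179 (126 to 2252), against 183 for distal intergenic peaks and 232 for promoter peaks. Above the median of all optimal peaks were 38.3% of members, against 38.5% of intergenic peaks (odds ratio 0.990, 95% interval 0.718 to 1.37, Fisher's exact test, two-sided, p = 1). The share of promoter peaks was 55.6% (odds ratio 0.496, Fisher's exact test, p = 1.12e-14). By the signal of replicate 2 alone, that is without replicate 3, the shares were 46.4% and 51.6% (odds ratio 0.812, Fisher's exact test, p = 0.0226), and without replicate 2 the odds ratio was 0.376.

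The replicates weighted these sites differently. Distal intronic entries made up 30.9% of replicate 2's 2971 strongest entries (918) and 17.5% of replicate 3's (521). A member was counted as found in a replicate when its summit lay in 1 of that replicate's 2971 strongest entries. Replicate 2 found 81.6% of members and replicate 3 found 69.0%, while for promoter peaks the order was reversed, at 68.5% and 87.5%. Found in replicate 2 alone were 173 members and in replicate 3 alone 89, against 172 and 559 promoter peaks (odds ratio 6.30, 95% interval 4.59 to 8.70, Fisher's exact test, two-sided, p = 5.11e-34).

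Both replicates found 369 members (55.6%, interval 51.7 to 59.4%), against 56.2% of intergenic peaks (odds ratio 0.975, 95% interval 0.710 to 1.34, Fisher's exact test, p = 0.877) and 60.0% of promoter peaks (odds ratio 0.834, p = 0.0457). The difference from promoters turned round when any entry of a replicate's list counted, at 87.8% against 74.4% (odds ratio 2.48, Fisher's exact test, p = 5.49e-14). Replicate 2 listed 588 members and replicate 3 listed 659, and 33 members were among the strongest entries of neither. Of the 133 strongest members 88.0% were found in both, and of the 132 weakest 5.30%, at the rank limit itself. First introns held 76.7% of these 133 strongest members and 56.8% of the 132 weakest. The nearest start was a median of 1300 bp away from the strongest and 2849.5 bp from the weakest. Intron order and distance were not separated here.

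The correlation of signal between replicates was lower over these sites than over promoters. Over the 583 members listed in both, Spearman's rank correlation was 0.50 and Pearson's r of log2 signal 0.70. The values were 0.59 and 0.80 over 203 intergenic peaks and 0.84 and 0.90 over 1511 promoter peaks, which span a wider range of signal. These are descriptions across peaks of the same 2 libraries. Replicate 2 had the higher value at 64.0% of members.

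**Figure D4:**
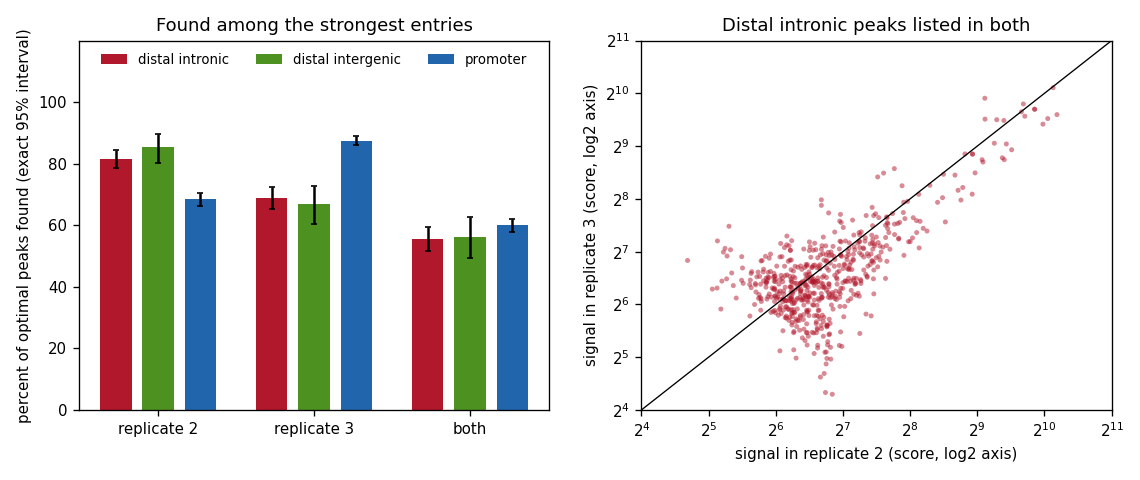
Left, percent of optimal distal intronic (664), distal intergenic (226) and promoter (2032) peaks found among the 2971 strongest entries of replicate 2, of replicate 3 and of both, with exact 95% intervals; right, signal in replicate 3 against replicate 2 for 583 members on log2 axes, with the line of equal values. Distal peaks were found more often in replicate 2 and promoter peaks in replicate 3, and the members scatter widely at low signal.

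The DNA under the summits was rich in A and T. In the 100 bp around member summits the mean GC content was 34.2%, against 43.0% in the bases 150 to 250 bp away on both sides, and it was lower at the summit in 504 of 664 members (75.9%). The drop was 8.81 percentage points in members, against 4.10 points in intergenic peaks, 3.71 points in promoter peaks and 0.941 points in weaker distal intronic candidates. In the replicates' own strongest distal intronic entries the summit had 35.0 ± 0.637% and the flanks 42.8 ± 0.134% (SD, n = 2). Individual sites varied, with an SD of 8.74 points over members, as the tara and woc windows printed above show.

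**Figure D5:**
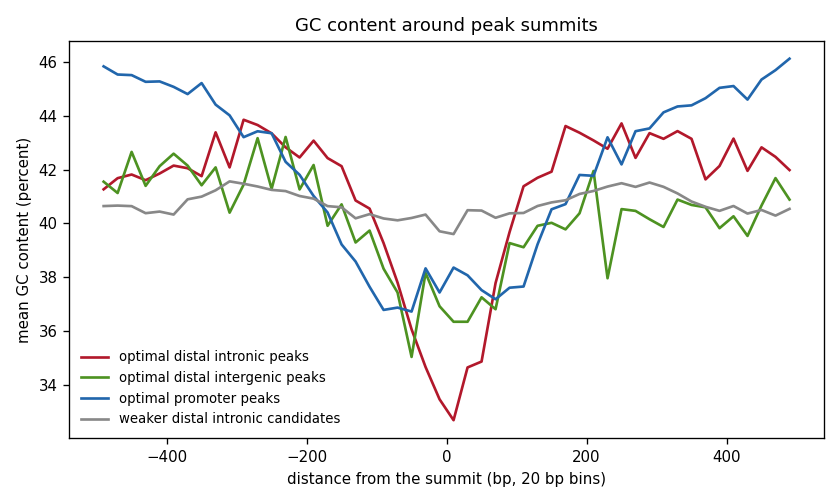
Mean GC content (percent) in 20 bp bins against distance from the summit (bp) for 664 optimal distal intronic, 226 optimal distal intergenic and 2032 optimal promoter peaks and 11846 weaker distal intronic candidates. The distal intronic peaks have the lowest values at the summit, 34.2% over the central 100 bp, and the weaker candidates stay near 40.1%.

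Few members held the ZIPIC string itself. CAGGGCTG, read on both strands in the 100 bp window, was present in 16 of 664 members (2.41%) and in 22 of 11846 weaker candidates (0.186%). The odds ratio was 13.3 (95% interval 6.48 to 26.6, Fisher's exact test, Benjamini-Hochberg adjusted over 11 strings, p = 1.55e-10). It was 6.12 without replicate 3 (0.980% of members) and 14.8 without replicate 2, past the threshold in both. The string was known from the peaks of this series, so its excess is no independent evidence. The share was 9.40% at promoter peaks, 6.19% at intergenic peaks and 0.301% in the members' flanks. The shorter form AGGGNTG, which overlaps it, was in 5.27% of members and 2.67% of weaker candidates (exact test as before, adjusted p = 0.00137). Among windows of 30 to 40% GC, which 312 members have, neither passed, with an odds ratio of 8.01 on 1 member for CAGGGCTG (exact test, adjusted p = 0.458) and of 1.82 for AGGGNTG (exact test, adjusted p = 0.450). AGGGNTG also missed with distal set from 1000 bp (exact test, adjusted p = 0.138).

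With 1 mismatch allowed in CAGGGCTG, 6.33% of members matched, against 12.4% of intergenic peaks (Fisher's exact test, adjusted over 8 tests, p = 0.0161) and 25.0% of promoter peaks (adjusted p = 8.22e-29). Of the weaker distal intronic candidates, 452 of 11846 matched (3.82%), a contrast that was not tested. Both gaps were tested again at like strength. That to intergenic peaks passed in no range of signal (exact tests, adjusted p of 0.360, 0.243 and 0.360 from the strongest range down). In the same order, 7 of 8, 8 of 19 and 13 of 199 intergenic peaks matched. The odds ratios of members over intergenic peaks were 0.216, 0.353 and 0.719, with intervals up to 2.71, 1.57 and 1.53. With intervals this wide, these tests cannot decide whether the gap to intergenic peaks remains at like strength. At a pooled signal of 1250.3 or more, 7 of 12 members matched, against 224 of 275 promoter peaks (exact test, adjusted p = 0.0994). From 524 up to that value it was 5 of 25 members against 114 of 252 promoter peaks (exact test, adjusted p = 0.0374). Below 524 it was 4.78% of members against 11.3% of promoter peaks (exact test, adjusted p = 3.35e-06). The interval of that 4.78%, 3.25 to 6.76%, holds the 3.82% of weaker distal intronic candidates. This concerns the form with 1 mismatch only. Below 524, the exact string was in 1.91% of members (12 of 627), 2.01% of intergenic and 1.79% of promoter peaks. It was in 0.186% of weaker candidates. At 1250.3 or more, 3 of 12 members held it, against 50% of intergenic and 45.8% of promoter peaks. Between these limits it was 1 of 25, against 31.6% and 15.1%. These shares by strength were not tested.

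TATAAA was the most frequent of the strings, in 22.7% of members against 13.0% of weaker candidates (odds ratio 1.97, Fisher's exact test, adjusted p = 1.55e-10), 16.0% of promoter peaks and 10.6% of flanks. It is made of A and T, and its excess missed the threshold among windows of 30 to 40% GC (odds ratio 1.44, Fisher's exact test, adjusted p = 0.154). The E-box CACGTG was in 1 member (0.151%) and in 1.21% of weaker candidates (Fisher's exact test, adjusted p = 0.0205), a call lost without replicate 2 (odds ratio 0.147 against 0.123, exact test, adjusted p = 0.0625). It was also lost from 1000 bp, in 50 bp windows, in windows of 30 to 40% GC, among members found in both replicates and among members above the median signal (exact tests, adjusted p of 0.0648 to 0.895). The remaining strings did not pass. The CGATA of the BEAF-32 site was in 9.94% of members, against 10.9% of weaker candidates and 28.4% of promoter peaks, and its longer form TATCGATA in 3 members. GAGAGAG, CACACACA and CTCTCTCT were in 5, 11 and 3 members. CACACACA passed as rarer in members without replicate 3 (1.09% against 2.77%, exact test, adjusted p = 0.00349) and in 50 bp windows (exact test, adjusted p = 0.0350). Against the members' own flanks all 3 were rarer at the summit, GAGAGAG at 0.753% against 5.27%, CACACACA at 1.66% against 5.57% and CTCTCTCT at 0.452% against 2.79% (exact tests, adjusted p of 1.76e-07, 6.28e-05 and 0.000539). These tests took the 664 summit windows and 1328 flank windows of the same members as independent and ignored their pairing. The flanks also had a higher GC content (43.0% against 34.2%), for which these tests made no allowance. GGTCACACT, the M1BP site, and CAGGTAG, the Zelda site, were in 0 of 664, which allows a share of up to 0.452% taken as 3 counts (0.554% by the exact interval).

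The X chromosome held 156 members (23.5%), against 15.0% of weaker candidates (odds ratio 1.74, 95% interval 1.43 to 2.10, Fisher's exact test, adjusted over 6 arms, p = 1.74e-07). Per Mb of distal intronic sequence, X held 15.3 members, against 11.1 to 13.1 on the large autosomal arms. In replicate 2's own list this density was 18.1 on X, against 16.6 to 18.3 on those arms, and in replicate 3's it was 12.1, against 8.03 to 11.2. The excess over weaker candidates passed in each replicate's own list, at 20.2% against 13.0% in replicate 2 and 23.6% against 17.6% in replicate 3. Chromosome 4 held 0 of 664, with the same upper limits, against 0.751% of weaker candidates (Fisher's exact test, adjusted p = 0.0449), a call that neither replicate's own list gave. The other arms did not pass.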

How the data were processed

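Whole-embryo ChIP-seq peaks of 2 replicates were analysed on dm6. The authors deposited candidate lists per replicate and pooled, and an optimal list from an irreproducible discovery rate procedure, per the deposited file descriptions. The deposited signal value is a score per entry, and served here for ranks, limits and descriptions. Neither labels nor file descriptions give the peak caller, the aligner or the score's scale, and control alignments were not analysed here. Lists on dm3 were not used.

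Summits were placed on Ensembl release 115 gene models (BDGP 6.54, transposable elements left out) and the Release 6 sequence from RefSeq, with Python 3.11.15, pandas 2.3.3 and scipy 1.17.1. A summit in several introns was given the shortest. Fisher's exact test, two-sided, was used for shares, with exact Clopper-Pearson intervals at 95%, and strings and arms were adjusted by Benjamini-Hochberg. Class assignment and string search were tested on simulated data. Named were the 20 strongest members, the 10 hosts with the most, up to 4 hosts of each of 8 gene lists (1 is not reported here), the peaks at the 500 bp limit. Members, lists and strings were chosen with earlier results of these data known. Alternatives covered distance, gene models, replicates, windows, overlaps and rank limits.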

Additional observations from a re-analysis of the deposited data

How the results depend on the processing

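Of the values that answer a comparison, 62 kept their direction and their side of the threshold under the alternatives tried or, for counts, stayed within 1.5 times. Another 3 lost the call, 5 counts moved by more and 1 reversed. The share found in both replicates, members against promoter peaks, lost its call with distal set from 250 bp (odds ratio 0.976) and from 1000 bp (0.832), and reversed with any entry counted (2.48). The share in introns of at least 10000 bp had an odds ratio of 0.877 without replicate 2 and 0.711 without replicate 3. The number of arms that passed was 1 without either replicate, against 2. The number of strings that passed was 4, against 7 with the members' own flanks as background, 2 from 1000 bp, 3 to 5 under the other settings and 0 in windows of 30 to 40% GC, an alternative chosen after seeing the data, as were those on overlapping entries, on members found in both replicates, on introns of at least 10 kb alone and on arms by replicate. The cause was not tested.

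Single strings without a call reversed in 14 cases. These odds ratios were 1.07 (CGATA) and 1.62 (CTCTCTCT) in 200 bp windows, and 1.39 (CTCTCTCT), 1.26 (GAGAGAG) and 0 (TATCGATA) in the GC-limited windows. Leaving out replicate 2 gave 1.32 and leaving out replicate 3 gave 0.561 for CAGGTAG, 0.793 and 1.12 for GAGAGAG, 1.07 and 1.06 for CGATA, and 1.01 and 1.46 for CTCTCTCT. GGTCACACT stood at 2.30 without replicate 2. TATCGATA stood at 1 against the flanks, and GAGAGAG in 200 bp windows at 1.71 (Fisher's exact test, adjusted p = 0.0264). No pairing of samples across conditions was possible because the 2 replicates form 1 group. The summit and flank windows of a member were compared without pairing. Depth is unknown, and the weaker candidates differ from the members in strength by construction.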
